A study of Rattus norvegicus with 9 samples.

Results

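The circadian clock genes of regrowing rat liver are described here as 10 genes taken by their platform symbol: Bmal1 (also called Arntl), Clock, Npas2, Per1, Per2, Per3, Cry1, Nr1d1, Dbp and Ciart. They are 10 of the 18166 genes named on the array and 10 of the 15793 that passed the filter on dim genes, each measured by 1 probe set. RNA came from laser-microdissected liver of female F344 rats, 3 arrays in each of 3 groups. The first group is SHPC clusters from livers transplanted with Thy1+ cells, the second is SHPC clusters of livers without transplantation, and the third is hepatocytes lying next to such clusters in livers without transplantation. SHPCs are small hepatocyte-like progenitor cells, which form clusters when the liver regrows while most hepatocytes are held back from dividing. Every animal had 2 intraperitoneal injections of retrorsine, the plant alkaloid that holds hepatocytes back, at 30 mg/kg and 2 weeks apart, then partial hepatectomy 4 weeks after the second injection. Donor Thy1+ cells came from rats with the surface enzyme DPPIV and entered DPPIV-negative recipients through the spleen. All groups are therefore retrorsine-treated and hepatectomised, and no array comes from an untouched liver. Clusters were picked by eye on sections 7 µm thick. The sources used here do not give the age or number of the animals, the hour of the day at which each liver was taken or the days since surgery. A description label of the hepatocyte arrays speaks of clusters with transplantation, whereas their cell type label says hepatocytes, and the cell type label was followed.

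The clock is a feedback loop of transcription that runs in nearly every cell. BMAL1 pairs with CLOCK, or with its relative NPAS2, and the pair binds E-box sequences and turns on the Per and Cry genes, Nr1d1, Dbp and Ciart. PER and CRY proteins and CIART then block the pair, while NR1D1 (REV-ERB alpha) binds RORE sequences and represses Bmal1 and Npas2, so that in liver the mRNAs of Bmal1 and Npas2 peak at about the opposite time of day to those of Nr1d1 and Dbp. The liver clock is set by the brain's clock through hormones, temperature and above all by the time of feeding.

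RefSeq promoter windows (assembly GRCr8, 250 bases before to 50 after an annotated start, 300 in all) were found for 9 of the 10 genes, all but Cry1, with 11 windows between them. They were searched on both strands for the E-box CACGTG, the E-box variant CACGTT, the D-box TTATGTAA bound by DBP, the RORE core TAGGTCA, a RORE with more 5′ bases, AGTAGGTNA, and the cyclic AMP element TGACGTCA. The letters of the longer RORE were chosen after the Bmal1 window had been read, and it overlaps the core wherever its open base is C. Of 33469 windows of this length in the table, 6.42% held the E-box, 4.83% the variant, 0.893% the D-box, 2.63% the RORE core, 0.604% the longer RORE and 1.83% the cyclic AMP element. The windows below are shown because each carries an element through which the loop is known to act, and capitals mark the matches.
Bmal1, chr1:176766078-176766377, plus strand: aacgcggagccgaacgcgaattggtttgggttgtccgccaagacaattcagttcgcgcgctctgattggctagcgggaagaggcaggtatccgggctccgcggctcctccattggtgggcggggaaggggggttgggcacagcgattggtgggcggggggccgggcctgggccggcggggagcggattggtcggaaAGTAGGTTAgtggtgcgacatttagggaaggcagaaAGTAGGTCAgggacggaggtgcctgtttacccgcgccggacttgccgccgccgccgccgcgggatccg
Nr1d1 (second annotated start), chr10:84229405-84229704, minus strand: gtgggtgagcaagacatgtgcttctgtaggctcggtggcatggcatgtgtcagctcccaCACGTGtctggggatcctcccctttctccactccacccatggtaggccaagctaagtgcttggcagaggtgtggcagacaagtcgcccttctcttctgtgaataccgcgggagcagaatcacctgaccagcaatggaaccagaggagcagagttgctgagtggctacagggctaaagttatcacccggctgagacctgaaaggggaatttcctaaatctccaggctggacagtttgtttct
Per2, chr9:99496944-99497243, minus strand: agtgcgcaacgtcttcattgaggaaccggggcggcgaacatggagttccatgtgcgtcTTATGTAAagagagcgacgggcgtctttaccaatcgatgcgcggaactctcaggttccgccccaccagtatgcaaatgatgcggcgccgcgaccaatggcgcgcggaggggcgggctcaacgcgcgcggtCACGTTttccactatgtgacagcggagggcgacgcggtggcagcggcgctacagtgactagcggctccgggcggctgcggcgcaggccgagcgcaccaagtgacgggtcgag
Ciart, chr2:186112197-186112496, minus strand: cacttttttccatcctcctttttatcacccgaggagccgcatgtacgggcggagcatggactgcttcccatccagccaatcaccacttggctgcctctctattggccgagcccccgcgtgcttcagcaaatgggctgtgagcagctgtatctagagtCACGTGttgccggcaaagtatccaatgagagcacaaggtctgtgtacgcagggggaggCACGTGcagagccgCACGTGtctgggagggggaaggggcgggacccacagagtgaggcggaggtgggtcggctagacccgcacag
The Bmal1 window held the longer RORE at -54 and at -18 from the start, and the copy at -18 contained the RORE core at -16. The Nr1d1 window held an E-box at -191, and the window of the other annotated Nr1d1 start, which is not shown, held the variant at -174. The Per2 window held a D-box at -192 and the variant at -62. Ciart had 3 E-boxes, at -93, -35 and -21. No window of these genes held the cyclic AMP element (0 of 11, where 1.83% of all windows did, so 0 lies near the background). The windows of Clock, Npas2, Per1, Per3 and Dbp held none of the motifs. Bases outside the windows were not searched, so these genes may carry the elements elsewhere. Matches are letters only, and binding was not measured.

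Values are log2 of the deposited linear intensity, given for arrays 1, 2 and 3 of a group in that order. A probe set's brightness depends on its probes, so levels were compared between groups and never between genes. No clock gene changed past an adjusted p of 0.05 in any comparison. In the comparison of SHPCs with and without transplantation 0 of 10 clock genes passed, where 0.00633% of all tested genes did. Between SHPCs and hepatocytes 0 of 10 passed, where 0.0633% of all tested genes did. Between SHPCs of transplanted livers and hepatocytes 0 of 10 passed, where 1.18% of all tested genes did. At shares this low, a count of 0 among 10 genes lies near the background. All p-values come from 1 limma fit of the 3 group means with Benjamini-Hochberg adjustment over 15793 genes, and the comparisons share arrays with one another. Because each array holds RNA of a captured area, fewer cells of a type and less RNA per cell cannot be told apart. Whether arrays of a group came from separate animals was not given, so the p-values measure only the spread between arrays.

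**Figure D1:**
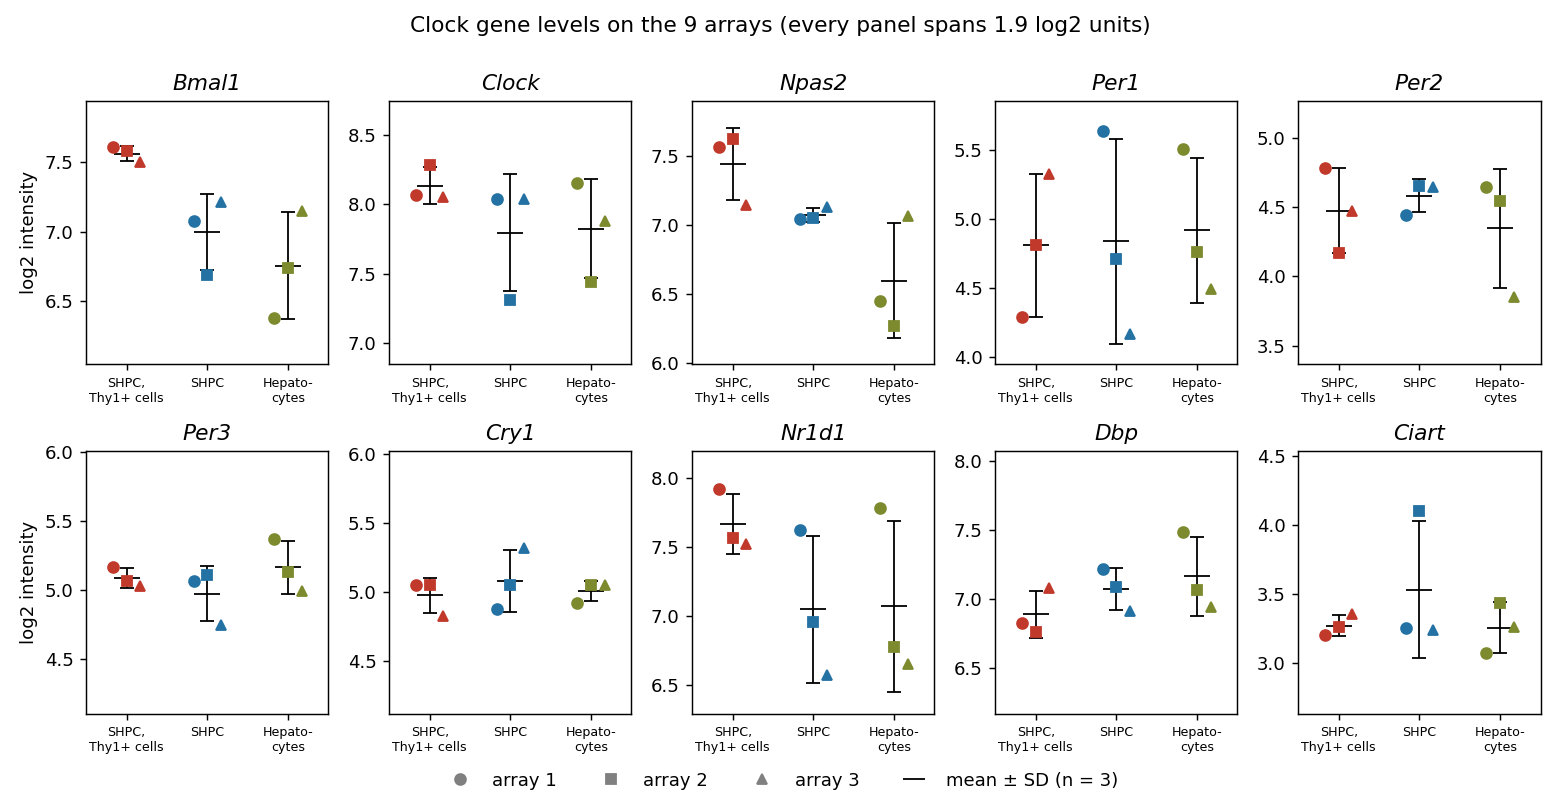
Log2 intensity of the 10 clock genes on each of the 9 arrays, 1 panel per gene, with SHPCs of transplanted livers to the left of SHPCs and hepatocytes. Circles, squares and triangles are arrays 1, 2 and 3, the horizontal bar is the group mean and the error bars are the SD (n = 3). Bmal1 lies higher on all 3 arrays of transplanted livers, while Per1 and Nr1d1 spread widely within groups.

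Among the activators of the loop, Bmal1 was at 7.61, 7.58 and 7.50 in SHPCs of transplanted livers, at 7.08, 6.69 and 7.22 in SHPCs and at 6.38, 6.73 and 7.15 in hepatocytes (probe set 17619710). Every array of transplanted livers exceeded every other array, and SHPCs and hepatocytes overlapped. Bmal1 averaged 7.56 ± 0.06 in SHPCs of transplanted livers, 6.99 ± 0.27 in SHPCs and 6.75 ± 0.38 in hepatocytes (log2 intensity, mean ± SD, n = 3 each). The difference between SHPCs with and without transplantation was 0.57 ± 0.21 (limma SE), a ratio of 1.48 with a 95% interval of 1.08 to 2.04, and it did not pass (adjusted p = 0.599). Against hepatocytes the difference was 0.81 ± 0.21, a ratio of 1.75 with an interval of 1.27 to 2.41, and it did not pass either (adjusted p = 0.127). Without SHPC array 2, which is not in that contrast but enters the pooled spread, its adjusted p was 0.0492. SHPCs differed from hepatocytes by 0.24 ± 0.21 (adjusted p = 1), a value that was 0.0541 without hepatocyte array 1 and 0.44 without hepatocyte array 3.

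Npas2, which encodes the partner that can stand in for CLOCK, was at 7.56, 7.62 and 7.14 in SHPCs of transplanted livers, at 7.04, 7.05 and 7.13 in SHPCs and at 6.45, 6.27 and 7.07 in hepatocytes (probe set 17858614). The lowest array of transplanted livers lay just above the highest SHPC array, and hepatocyte array 3 lay among the SHPC arrays. The means were 7.44 ± 0.26 in SHPCs of transplanted livers, 7.07 ± 0.05 in SHPCs and 6.60 ± 0.42 in hepatocytes (SD, n = 3 each). SHPCs of transplanted livers exceeded hepatocytes by 0.84 ± 0.21, a ratio of 1.79 with a 95% interval of 1.29 to 2.49 (limma adjusted p = 0.123). The corresponding difference from SHPCs was 0.37 ± 0.21 (adjusted p = 0.705). SHPCs exceeded hepatocytes by 0.48 ± 0.21, with an unadjusted p of 0.0486 and an adjusted p of 1. None of the 3 differences passed.

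Clock, which encodes the usual partner of BMAL1, was at 8.07, 8.29 and 8.05 in SHPCs of transplanted livers, at 8.04, 7.31 and 8.04 in SHPCs and at 8.15, 7.44 and 7.88 in hepatocytes (probe set 17689370). Array 2 was low in both groups without transplantation, and the other arrays of all groups lay close together. These are the 2 arrays that stood apart over all genes, with a median linear intensity of 24.1 and 23.0 against 19.6 to 20.6 on the others. Transplanted livers exceeded SHPCs by 0.34 ± 0.24 (adjusted p = 0.720), and without SHPC array 2 this difference was 0.10. Against hepatocytes it was 0.31 ± 0.24 (adjusted p = 0.696), and between SHPCs and hepatocytes it was -0.03 ± 0.24 (adjusted p = 1).

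Of the repressors, Nr1d1 was at 7.92, 7.56 and 7.52 in SHPCs of transplanted livers, at 7.62, 6.96 and 6.57 in SHPCs and at 7.78, 6.78 and 6.66 in hepatocytes (probe set 17660843). Array 1 was the highest in every group, and array 1 of each group without transplantation overlapped the arrays of transplanted livers. Transplanted livers averaged 7.67 ± 0.22 against 7.05 ± 0.53 in SHPCs and 7.07 ± 0.62 in hepatocytes (SD, n = 3 each). The difference from SHPCs was 0.62 ± 0.33 and did not pass (limma adjusted p = 0.705). It was 0.38 without SHPC array 3 and 0.90 without SHPC array 1. Its 95% interval ran from -0.12 to 1.35, which is a ratio of 0.921 to 2.55. Against hepatocytes it was 0.59 ± 0.33 (adjusted p = 0.596), and SHPCs differed from hepatocytes by -0.02 ± 0.33 (adjusted p = 1).

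Per1, a repressor that also answers quickly to glucocorticoids and cyclic AMP, was at 4.29, 4.81 and 5.33 in SHPCs of transplanted livers, at 5.64, 4.71 and 4.17 in SHPCs and at 5.50, 4.76 and 4.49 in hepatocytes (probe set 17647373). It was highest on array 1 and lowest on array 3 in SHPCs and in hepatocytes, and the other way round in transplanted livers, so all 3 groups overlapped. The group differences were -0.03 ± 0.40 between SHPCs with and without transplantation, -0.08 ± 0.40 between SHPCs and hepatocytes and -0.11 ± 0.40 between SHPCs of transplanted livers and hepatocytes. The 95% interval of the first ran from -0.92 to 0.87, so with 3 arrays a group the values allow a Per1 difference of either sign within these limits.

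Per2, the other PER protein at the core of the loop, was at 4.78, 4.17 and 4.48 in SHPCs of transplanted livers, at 4.45, 4.65 and 4.65 in SHPCs and at 4.65, 4.54 and 3.85 in hepatocytes (probe set 17866453). The groups overlapped, and hepatocyte array 3 was the lowest. Per3, whose product is the least needed of the PER proteins in mouse, was at 5.17, 5.07 and 5.03 in SHPCs of transplanted livers, at 5.07, 5.11 and 4.74 in SHPCs and at 5.37, 5.13 and 5.00 in hepatocytes (probe set 17812917). The groups overlapped here too. Transplanted livers differed from SHPCs by -0.11 ± 0.23 in Per2 and by 0.11 ± 0.15 in Per3 (limma adjusted p = 0.890 and 0.822).

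Cry1, which encodes the CRY protein that holds the BMAL1 pair in check late in the cycle, was at 5.05, 5.05 and 4.83 in SHPCs of transplanted livers, at 4.88, 5.05 and 5.32 in SHPCs and at 4.92, 5.05 and 5.05 in hepatocytes (probe set 17827164). On 5 of the 9 arrays its deposited value was the same, 33.1 on the linear scale, and 4.43% of tested genes likewise held 1 value on at least 5 arrays. Equal values lower the spread estimated for Cry1. Its SD within groups, 0.15, is therefore not a plain measure of array error. The 3 group differences lay between -0.10 and 0.07, each with an SE of 0.15.

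Ciart, a repressor of the BMAL1 pair that cycles strongly in mouse liver, was at 3.20, 3.26 and 3.36 in SHPCs of transplanted livers, at 3.26, 4.10 and 3.24 in SHPCs and at 3.07, 3.44 and 3.26 in hepatocytes (probe set 17749555). These are dim values, since the 25th percentile of all probe sets lay between 2.85 and 3.14 on the arrays. SHPC array 2 was the highest, and the other arrays of the 3 groups overlapped. The difference between SHPCs with and without transplantation, -0.26 ± 0.22 (limma adjusted p = 0.743), became 0.02 without that array.

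Dbp, a direct target of the BMAL1 pair that itself drives many liver genes through D-boxes, was at 6.83, 6.76 and 7.08 in SHPCs of transplanted livers, at 7.22, 7.09 and 6.92 in SHPCs and at 7.48, 7.07 and 6.94 in hepatocytes (probe set 17616470). Array 3 of transplanted livers fell inside the range of the other groups, and arrays 1 and 2 lay below it. Transplanted livers averaged 6.89 ± 0.17 against 7.07 ± 0.15 in SHPCs and 7.16 ± 0.28 in hepatocytes (SD, n = 3 each). The differences were -0.19 ± 0.17 from SHPCs and -0.28 ± 0.17 from hepatocytes (limma adjusted p = 0.757 and 0.643). SHPCs differed from hepatocytes by -0.09 ± 0.17 (adjusted p = 1).

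**Figure D2:**
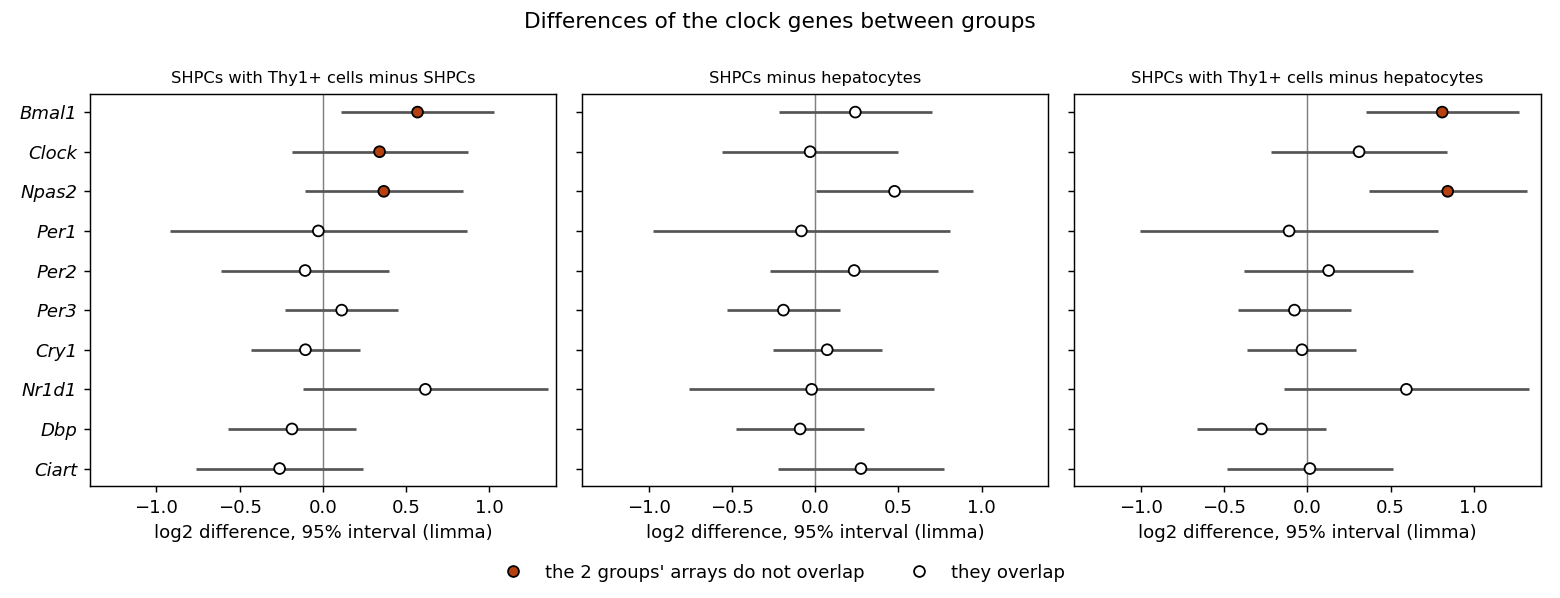
Difference of group means in log2 intensity for each clock gene in the 3 comparisons, with 95% intervals from limma and filled points where the groups' arrays do not overlap. Intervals of Bmal1 lie above 0 in both comparisons of transplanted livers, those of Npas2 lie above 0 in both comparisons with hepatocytes, and no adjusted p is under 0.05.

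Before adjustment, Bmal1 was the only clock gene with a p under 0.05 between SHPCs with and without transplantation, 1 of 10 where 7.35% of all tested genes had such a p. Between SHPCs and hepatocytes it was Npas2, 1 of 10 against 4.12% of all tested genes. Between SHPCs of transplanted livers and hepatocytes they were Bmal1 and Npas2, 2 of 10 against 10.4% of all tested genes. Groups did not overlap for Bmal1, Clock and Npas2 in the first comparison, 3 of 10 against 15.8% of all tested genes, all 3 higher in transplanted livers. The margin was thin for Clock and Npas2. For Clock the lowest array of transplanted livers was at 8.051 and the highest SHPC array at 8.039. For Npas2 these were 7.140 and 7.132. In the second comparison groups lay apart for 0 of 10 against 5.22%, and in the third for Bmal1 and Npas2, 2 of 10 against 19.2%. With 10 genes each of these counts lies within 2 genes of the background share. The median difference over the clock genes was 0.04, 0.03 and 0.07 in the 3 comparisons, where that over all tested genes was 0.02, -0.01 and -0.00.

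Markers of some other liver cells had higher means in transplanted livers. All 8 Kupffer cell markers (the liver's macrophages) had a higher mean in SHPCs of transplanted livers than in SHPCs. Their median difference was 0.65, where that over all tested genes was 0.02. Past the threshold were 0 of 8, where 0.00633% of all tested genes were. The summed linear intensity of the 8 markers was 2218 to 2852 in SHPCs of transplanted livers, 1136 to 1900 in SHPCs and 1533 to 2187 in hepatocytes. All 5 stellate cell markers measured were higher as well, with a median of 0.40 and 0 of 5 past the threshold, against the same 0.00633%. Their sums were 451 to 515 in SHPCs of transplanted livers, 251 to 412 in SHPCs and 315 to 535 in hepatocytes. SHPC array 2, which stood apart over all genes, was the lowest SHPC array in every Kupffer cell marker but Marco. It was also the lowest in Lrat, Rgs5 and Pdgfrb, but not in Des and Col1a1. Vsig4, for example, was at 8.26, 6.46 and 8.31 in SHPCs. Against hepatocytes the Kupffer cell markers of transplanted livers were higher by a median of 0.32, with 8 of 8 higher. Of these 8, 1 was past the threshold, where 1.18% of all tested genes were. Between SHPCs with and without transplantation the sinusoidal endothelium markers, 2 of 6 tested, were both higher as well (median 0.25, 0 past the threshold). Cholangiocyte, T and NK cell and neutrophil markers did not share this direction. Cholangiocyte markers had 2 higher and 3 lower (median -0.02), T and NK cell markers 2 higher and 2 lower (median 0.0048). Neutrophil markers had 0 higher and 3 lower (median -0.20). Hepatocyte markers (4 of 6 analysed here) summed to 24505 to 26358 in SHPCs of transplanted livers, 22875 to 25662 in SHPCs and 24873 to 26478 in hepatocytes. The part of other cells in the Bmal1, Npas2 and Nr1d1 values was not tested.

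**Figure D3:**
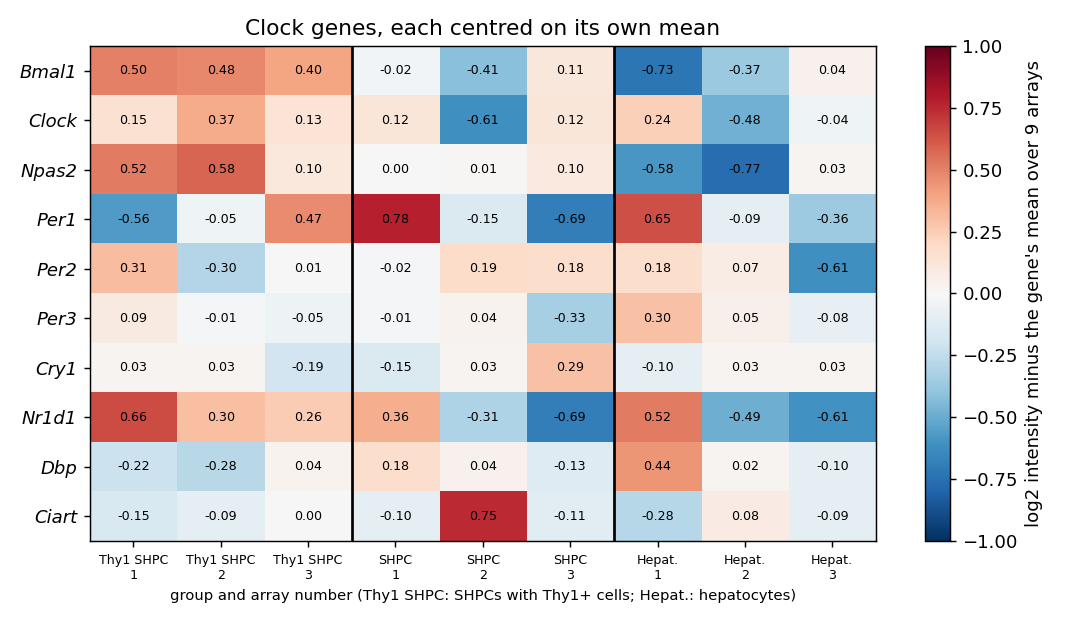
Each clock gene on each array as log2 intensity minus that gene's mean over the 9 arrays, with SHPCs of transplanted livers (Thy1 SHPC) on the left, then SHPCs and hepatocytes (Hepat.). Bmal1, Npas2, Clock and Nr1d1 are above their mean on all 3 arrays of transplanted livers, and Per1 and Nr1d1 separate array 1 from array 3 in SHPCs and hepatocytes.

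The clock genes differed in how far arrays of a group lay from each other. Per1 had an SD within groups of 0.60, pooled over the 3 groups, which is above that of 98.4% of tested genes. Nr1d1 followed with 0.49, above 94.7% of them, and the median gene had 0.23. Clock, Per2, Ciart, Npas2 and Bmal1 lay between the percentiles 63.7 and 77.1, Dbp at 41.9, and Per3 and Cry1 at 25.1 and 21.2. The arrays of transplanted livers were the more alike over all genes, with a mean absolute deviation from the group mean of at most 0.0993, against at least 0.143 on every array of the other groups. Bmal1 had an SD of 0.06 in SHPCs of transplanted livers, 0.27 in SHPCs and 0.38 in hepatocytes, while Per1 had 0.52, 0.74 and 0.52 in the same order.

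SHPCs and hepatocytes share array numbers, and over all genes the deviations of same-numbered arrays from their group means correlated at 0.53, 0.70 and 0.34 (Pearson's r across genes, which are not independent replicates) for numbers 1, 2 and 3. Between numbers, SHPC array 3 correlated with hepatocyte array 1 at 0.48. The labels do not say what a number stands for. The following comparison of arrays 1 and 3 was chosen after the values had been seen and carries no test.

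In SHPCs, array 1 exceeded array 3 by 1.47 in Per1, and in hepatocytes it did so by 1.01. For Nr1d1 the same gaps were 1.05 in SHPCs and 1.12 in hepatocytes. Both repressors were thus more than 1 log2 unit higher on array 1 in either group. Gaps of that size, with the same sign in both groups, were seen in 18 of 15793 tested genes, 0.114%. Of these 18, 14 were higher on array 1. Dbp was higher on array 1 by 0.30 in SHPCs and 0.54 in hepatocytes, and Per3 by 0.32 and 0.38. Bmal1 went the other way, with array 1 minus array 3 at -0.14 in SHPCs and -0.77 in hepatocytes, as did Npas2 at -0.09 and -0.62 and Cry1 at -0.44 and -0.13. So 7 of 10 clock genes had gaps of the same sign in both groups, where 47.6% of all tested genes did, and across all tested genes the gaps in SHPCs and hepatocytes correlated at r = 0.098. Per2, Clock and Ciart did not share a sign: Per2 was at -0.20 in SHPCs and 0.79 in hepatocytes, Clock at 0 and 0.27, and Ciart at 0.02 and -0.19. In transplanted livers Per1 was 1.03 higher on array 3 than on array 1, and Nr1d1 0.40 higher on array 1.

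**Figure D4:**
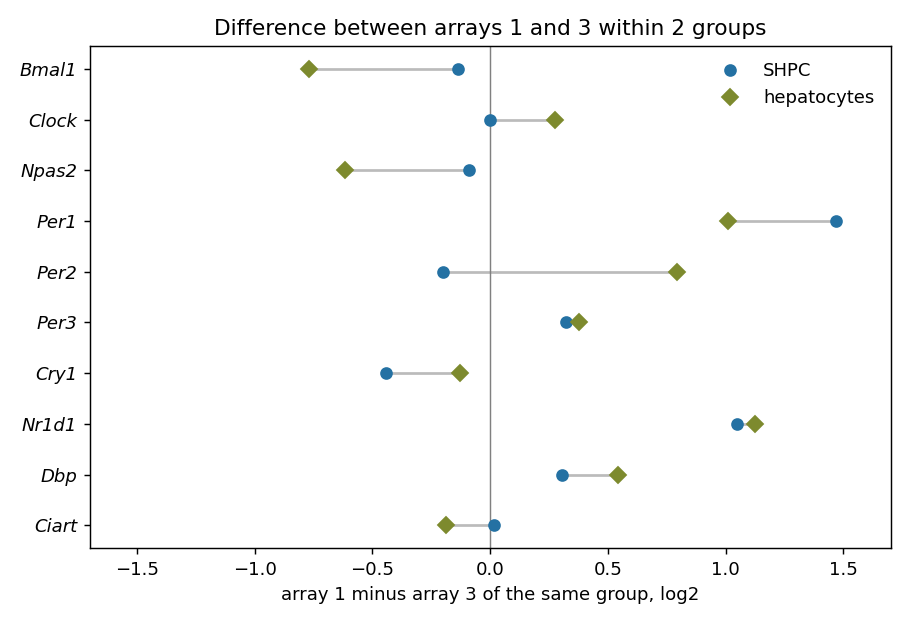
Array 1 minus array 3 in log2 intensity for each clock gene, with circles for SHPCs, diamonds for hepatocytes and a grey line joining the pair. Per1 and Nr1d1 lie beyond 1 in both groups, and Bmal1, Npas2 and Cry1 lie below 0 in both.

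Of the 18 genes beyond 1 in both groups, 14 were higher on array 1 and 4 lower. Beside Per1 and Nr1d1 the higher ones were Thrsp, Elovl6, Tsku, Hsd17b2, Ppp1r3b, Coq10b, Arrdc3, Dusp1, Tp53inp1, Zfp354a, Hba-a1 and Mir194-1, and the lower ones were Pdk4, Acot1, Cxcl1 and Spink1. Thrsp and Elovl6 serve fatty acid synthesis and rise after a meal, Ppp1r3b directs glycogen storage, and Pdk4 and Acot1 are known for their rise in fasting. These genes were picked from the 18 after their values were seen, and the rest of the 18 were not sorted by feeding. Thrsp was 2.58 higher on array 1 in SHPCs and 1.21 higher in hepatocytes, and Elovl6 1.13 and 1.11 higher. Array 1 minus array 3 was -1.10 in SHPCs and -1.09 in hepatocytes for Pdk4, and -1.99 and -2.19 for Acot1. Hour of collection and feeding state are not in the labels, and their part in these gaps was not tested.

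Within a number, SHPCs and hepatocytes differed less in Per1 and Nr1d1 than arrays 1 and 3 of a group did. SHPC minus hepatocyte was 0.13, -0.05 and -0.33 for Per1 and -0.16, 0.18 and -0.08 for Nr1d1 at numbers 1, 2 and 3. Bmal1 differed by 0.70, -0.04 and 0.07 and Npas2 by 0.59, 0.78 and 0.06, so Npas2 was higher in SHPCs at all 3 numbers and Bmal1 at 2 of 3. With the number as a block in a fit of SHPCs and hepatocytes alone, added after the data were seen, 0 of 10 clock genes passed. Over all genes that fit called 76, where a fit of the same 2 groups without the block called 0 and the block in the fit of all 3 groups called 35.

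Of 21 further clock and clock-linked genes, 14 were tested and 0 passed in each comparison. Over all tested genes 0.00633%, 0.0633% and 1.18% passed in the 3 comparisons, so a count of 0 lies near the background. Between SHPCs with and without transplantation 10 were higher and 4 lower, with a median difference of 0.12, and 2 of 14 (Bhlhe40 and Prkaa1) had an unadjusted p under 0.05, where 7.35% of all tested genes did. Bhlhe40 (Dec1), a repressor that competes for E-boxes, was at 8.72, 9.26 and 8.30 in SHPCs of transplanted livers, at 8.14, 7.05 and 7.68 in SHPCs and at 7.88, 6.86 and 7.45 in hepatocytes. All arrays of transplanted livers lay above the others. The difference was 1.13 ± 0.34 from SHPCs and 1.36 ± 0.34 from hepatocytes (limma adjusted p = 0.461 and 0.126). Between SHPCs of transplanted livers and hepatocytes 4 of 14 had an unadjusted p under 0.05, all higher, where 10.4% of all tested genes did. Beside Bhlhe40 they were Cry2, Csnk1d, which encodes a kinase that marks PER proteins, and Timeless, with unadjusted p-values of 0.0362, 0.0457 and 0.0373 (limma) and differences of 0.41, 0.36 and 0.45. Timeless also differed by 0.46 between SHPCs and hepatocytes, with an unadjusted p of 0.0356 and an adjusted p of 1. Prkaa1, a subunit of the energy-sensing kinase AMPK, differed by 0.88 ± 0.37 between SHPCs with and without transplantation (adjusted p = 0.662). It was at 6.85, 6.99 and 6.74 in SHPCs of transplanted livers and at 6.49, 5.04 and 6.41 in SHPCs, so SHPC array 2 was far below the others. Nfil3, which represses through D-boxes and cycles opposite to Dbp, had array 1 minus array 3 at -0.64 in SHPCs and -1.30 in hepatocytes, and was picked out after its values were seen. Over the list, 8 of 14 had gaps of the same sign in both groups, where 47.6% of all tested genes did. Tef, a relative of Dbp, was at -0.08 in SHPCs and 0.46 in hepatocytes, and Cry2 at -0.26 and 0.23.

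Among 18 liver genes known as outputs of the clock, 17 were tested. In the first 2 comparisons 0 passed, where 0.00633% and 0.0633% of all tested genes did. Between SHPCs of transplanted livers and hepatocytes 3 passed, 1 higher and 2 lower, where 1.18% of all tested genes did. At an unadjusted p under 0.05 the counts were 3 higher and 2 lower, 2 higher and 3 lower, and 5 higher and 3 lower in the 3 comparisons, beside 7.35%, 4.12% and 10.4% of all tested genes. Nr1i3, the nuclear receptor CAR that is driven by DBP and its relatives in mouse liver, was at 4.98, 5.28 and 5.14 in SHPCs of transplanted livers, at 5.68, 5.84 and 6.76 in SHPCs and at 7.97, 7.31 and 7.97 in hepatocytes. The 3 groups did not overlap. It fell by 2.62 ± 0.28 in SHPCs of transplanted livers against hepatocytes (limma adjusted p = 0.00374). Gys2, the glycogen synthase of liver, was at 7.03, 7.04 and 7.07 in SHPCs of transplanted livers, at 7.73, 7.85 and 8.16 in SHPCs and at 7.997, 7.66 and 8.18 in hepatocytes. The arrays of transplanted livers lay below all others, and the fall against hepatocytes was -0.90 ± 0.17 (adjusted p = 0.0368). Tfrc, the transferrin receptor, was at 8.16, 7.77 and 8.03 in SHPCs of transplanted livers, at 7.97, 7.18 and 7.91 in SHPCs and at 7.05, 6.56 and 6.81 in hepatocytes, and it rose by 1.18 ± 0.23 against hepatocytes (adjusted p = 0.0426). SHPCs with and without transplantation overlapped in Tfrc, and both lay above hepatocytes.

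The liver clock is also set by glucocorticoids and temperature, so lists of genes linked to these responses were read beside it. Not all genes of these lists are targets. Of 14 glucocorticoid and cyclic AMP response genes tested, 0 passed between SHPCs with and without transplantation, where 0.00633% of all tested genes did, and 0 between SHPCs and hepatocytes, where 0.0633% did. At an unadjusted p under 0.05 these counts were 3 higher and 2 lower, against 7.35% of all tested genes, and 4 higher and 0 lower, against 4.12%. Between SHPCs of transplanted livers and hepatocytes 5 higher and 0 lower had such a p, against 10.4% of all tested genes, and 1 of 14 passed, where 1.18% of all tested genes did. It was Hsd11b1, which regenerates active glucocorticoid, with a rise of 1.72 ± 0.29 (limma adjusted p = 0.0264). Of 5 temperature response genes tested, 0 passed in each comparison, against the same shares of all tested genes, and 0 higher and 1 lower, 0 and 0, and 0 higher and 2 lower had an unadjusted p under 0.05 in the 3 comparisons.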

How the data were processed

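RNA of microdissected liver was measured on 9 Affymetrix whole-transcript arrays, 3 per group. The deposited table holds a linear intensity for 36685 probe sets, made with RMA (per the submitters' processing notes). RMA corrects background, normalizes arrays to each other and sums up probes, and the values appear to have been taken back from log2. The version of RMA and a genome build are not given in the sources used here. There were 0 columns of other samples. The log2 of each intensity was taken here. Probe sets with 1 gene symbol in the platform annotation (18511) were named, and where a gene had several, that with the highest mean was used. A gene was tested if at least 3 arrays lay above the 25th percentile of their own probe sets, and 15793 genes were. A single limma model (3.58.1, R 4.3.3) held the 3 group means, with 6 residual degrees of freedom. After eBayes, p-values were adjusted by Benjamini and Hochberg's method and called under 0.05. The fit was tested on simulated data. The number of arrays limits the precision.

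The clock genes, the other lists and the tests were chosen with earlier results of these data known. All 10 clock genes are described. Of the other lists, genes that passed are named, and in the list of further clock genes also those with an unadjusted p under 0.05; the remaining genes of the lists are given as counts. Nfil3 and the 18 genes with large gaps between arrays 1 and 3 were chosen after their values were seen. Array numbers were read as pairs of SHPCs and hepatocytes, since deviations of all same-numbered arrays correlated at over 0.1 (0.53, 0.70 and 0.34). Arrays of unlike number did so too, SHPC array 3 with hepatocyte array 1 at 0.48 and SHPC array 1 with hepatocyte array 3 at 0.24. The correlations therefore do not show that arrays 1 and 3 pair by number. SHPCs of transplanted livers were not read as paired with either group (-0.09 to 0.00 with SHPCs and -0.09 to -0.07 with hepatocytes). The labels do not tie any array to an animal. The alternatives were other normalizations, filters, probe set choices, weights and blocks, and leaving out arrays.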

Additional observations from a re-analysis of the deposited data

How the results depend on the processing

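The 30 differences of clock genes were each recomputed under 20 to 22 alternatives, which gave 637 values: 588 kept their direction and their side of the threshold, 45 turned sign without passing and 4 passed where the original did not. The 4 all lay between SHPCs of transplanted livers and hepatocytes. With array quality weights, which let arrays far from their group count less, Bmal1 was at 0.52 (limma adjusted p = 0.0214), Npas2 at 0.50 (0.0470) and Nr1d1 at 0.89 (0.0312). So 3 of 10 clock genes were called there, where the same fit called 2685 of 15793 tested genes. Without SHPC array 2 Bmal1 was called alone (limma adjusted p = 0.0492). Over all genes, fits without 1 array called 31 to 472 in this comparison. The clock genes called were 0 under the other alternatives, the replicate blocks included. Removing 1 array at a time gave 0 to 1. Over all genes, the counts called between SHPCs with and without transplantation, between SHPCs and hepatocytes and between SHPCs of transplanted livers and hepatocytes were, in that order, 1, 10 and 186 as reported, 0, 0 and 47 after median centring, 17, 17 and 328 after renewed quantile normalization, 40, 34 and 440 after cyclic loess, 0, 0 and 304 with the compared groups alone, 259, 375 and 2685 with array weights, and 23, 48 and 575 without both arrays that stood apart. With the replicate block they were 64, 35 and 367 (fixed) and 10, 29 and 305 (random), and the fixed replicate block in SHPCs and hepatocytes alone, the one alternative chosen after seeing the data, gave 76 (48 higher, 28 lower). Removing 1 array at a time gave 0 to 24, 0 to 53 and 31 to 472. The cause of these moves was not tested. Only SHPCs and hepatocytes were read as paired by number, which the labels do not state, and the fit with that pairing changed no call of a clock gene. With the stricter filter on dim genes Ciart was not tested.

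Turned signs were those of differences from -0.26 to 0.28, both of Ciart, in the original fit. Some others within these limits, such as that of Dbp at -0.19 between SHPCs with and without transplantation, kept their sign. Between SHPCs with and without transplantation Per1 was 0.076 after median centring, 0.075 after quantile normalization, 0.052 after loess and 0.0345 with weights, and Ciart 0.0247 without both arrays. Between SHPCs and hepatocytes Clock was 0.002, 0.0152, 0.13 and 0.0231 under quantile normalization, loess, weights and without both arrays, Nr1d1 was 0.0202, 0.0214 and 0.21 under the first 3 of these, and Per1 and Dbp were 0.14 and 0.0344 with weights. Between SHPCs of transplanted livers and hepatocytes Per3 was 0.0156 after median centring and 0.0496 with weights, Cry1 0.0609, 0.0229 and 0.0224 after median centring, quantile normalization and loess, and Per1 0.17 with weights. Removing 1 array at a time turned further signs, with these ranges. Between SHPCs with and without transplantation Per1 ran from -0.36 to 0.37, Per2 from -0.26 to 0.0453, Per3 from -0.0022 to 0.18, Cry1 from -0.21 to 0.013 and Ciart from -0.41 to 0.0247. Between SHPCs and hepatocytes Clock ran from -0.22 to 0.21, Per1 from -0.48 to 0.25, Per2 from -0.0121 to 0.38, Cry1 from -0.0449 to 0.18, Nr1d1 from -0.31 to 0.33, Dbp from -0.20 to 0.0706 and Ciart from -0.009 to 0.42. Between SHPCs of transplanted livers and hepatocytes Per1 ran from -0.37 to 0.18, Per2 from -0.12 to 0.28, Per3 from -0.16 to 0.026, Cry1 from -0.0742 to 0.0423 and Ciart from -0.0768 to 0.11.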

Other observations

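The genes whose pattern over the 9 arrays was most like that of 3 clock genes were looked up by the root mean square difference of log2 values, each gene centred on its own mean. Nearest to Bmal1 were Copg1 at 0.131, Cdca2 at 0.151 and Ticrr at 0.164. Nearest to Dbp were Pcdhb7 at 0.0707, Pwp2 at 0.0779 and Coil at 0.0822. Nearest to Per2 were Rapgef5 at 0.131, Defb13 at 0.135 and Batf3 at 0.143. A small difference is easier to reach for genes that vary little, and all 9 points share the arrays, so these values are a description. None of the 9 neighbours belongs to the clock lists.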
